A study of Mus musculus with 2 samples.

Results

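Blood stem cells are kept and specified by a small set of transcription factors, and 10 of their genes were described here in bone marrow cells of nondiabetic and diabetic mice. The genes were Gata2, Tal1, Lyl1, Lmo2, Ldb1, Fli1, Erg, Runx1, Meis1 and Gfi1b, listed for their known role in these cells. All 12 array probes whose transcript identifier belongs to one of them are shown, out of 28319 probes that could be assigned to 21360 genes.

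The cells were LSK cells, named for being lineage-negative, without surface proteins typical of mature blood cells, and positive for Sca-1 and c-kit. Hematopoietic stem cells and the earliest progenitors of the bone marrow are found among them. Their RNA was hybridized to 1-colour Agilent mouse arrays, 1 for nondiabetic and 1 for diabetic C57BL/6J mice, to compare gene expression between these conditions. Diabetes was induced with streptozotocin (STZ), a toxin of the insulin-producing beta cells, which the study's methods describe as injected into the tail vein, with citrate buffer for control mice. For each array the labels name 3 mice, so that a value is an average over animals, and 8.3 ng of total RNA, which was amplified before labelling with Cy3. Per the methods, the cells were obtained by Ficoll separation, removal of dead cells and fluorescence-activated sorting. The labels give female mice, whereas the paper's text describes male mice. Age and time after STZ are not in the labels.

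Of 62976 spots on an array, 59305 were for transcripts rather than controls. The scanner software called 62.7% of them well above background in the nondiabetic sample and 63.9% in the diabetic sample. Values are processed intensities, from which the software had subtracted the background. Each is given with the software's own error for its spot, since every member probe was printed once. Ratios are diabetic over nondiabetic on the log2 scale, after each array was scaled to its 75th percentile, an intensity of 168.2 on the nondiabetic and 182.5 on the diabetic array. With 1 array per condition, no difference was tested, and the spread between animals is unknown. The software's error covers the reading of a spot only.

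These factors work as a connected group. GATA factors, basic helix-loop-helix factors of the Tal1 and Lyl1 kind, the adaptor Lmo2 and its partner Ldb1 assemble into a shared complex on DNA, and in blood stem and progenitor cells Gata2, Tal1, Lyl1, Lmo2, Runx1, Fli1 and Erg are known to occupy many of the same regulatory regions, including their own. Loss of some of them, such as Tal1 and Lmo2, stops blood formation in the mouse embryo.

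The genes were detected on both arrays, each by at least 1 probe, and most of their ratios were small and positive. By the brightest probe of each gene, 9 of 10 had a log2 ratio above 0, with a median of 0.32. Over all 15192 genes with a ratio or a bound, 51.2% lay above 0 and the median was 0.02. Among the 8731 genes within the same range of signal as the members, 52.9% lay above 0 and the median was 0.04. Fli1 alone passed 2-fold among these 10 genes, and 0 were 2-fold lower. Of all genes, 11.0% were 2-fold higher or more and 10.1% were lower by as much, and 8.93% of the genes in the members' signal range were at least 2-fold higher, so 1 of 10 is near the background. Without Fli1 the median of the other genes was 0.28.

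Counted by probe, 11 of the 12 were well above background on both arrays. Of these, 1 was at least 2-fold higher and 0 were 2-fold lower, against 8.96% higher and 9.12% lower among all 32506 probes measured on both arrays. The remaining probe, for Erg, gave a bound. In bulk samples such as these, fewer cells of a type and less RNA per cell cannot be told apart.

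**Figure D1:**
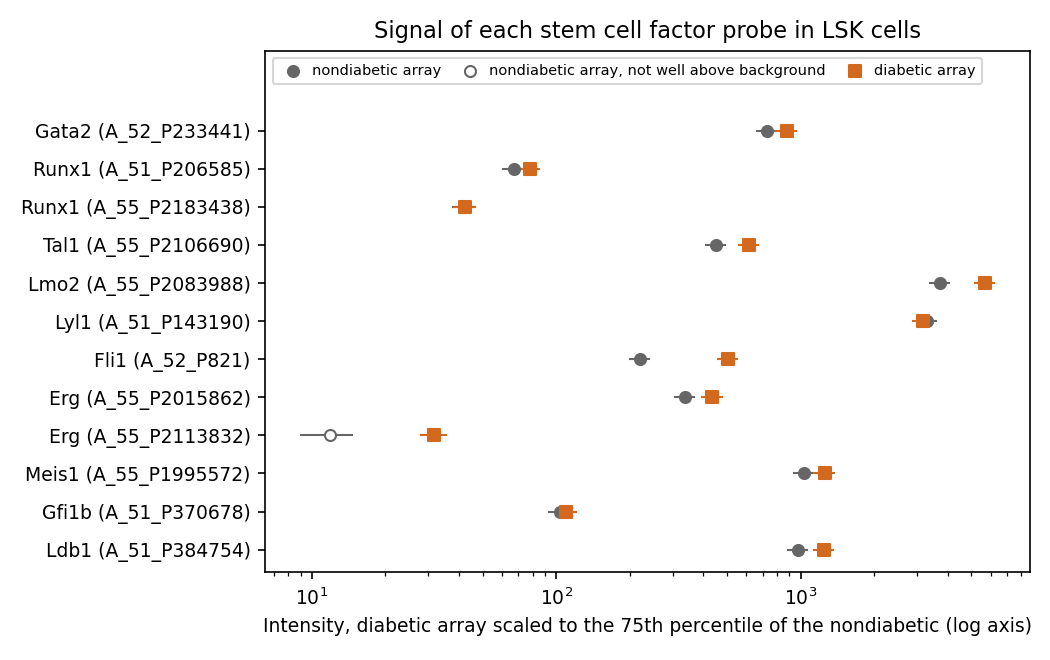
Intensity of each of the 12 probes on a log axis, with the diabetic array scaled to the 75th percentile of the nondiabetic array. Circles are the nondiabetic and squares the diabetic array, an open circle is a probe not well above background, and bars are the software's error for the spot. The Fli1 probe and the dimmer Erg probe show the widest distance between the arrays.

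Gata2 encodes the zinc finger factor on which the maintenance of blood stem cells depends. Its probe read 727 ± 72.7 in nondiabetic and 950.3 ± 95.1 in diabetic cells. After scaling, this was 1.21-fold higher, a log2 ratio of 0.27 ± 0.20. Of the 5137 probes within 1 log2 unit of its signal, 29.7% had a ratio at least as high.

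Tal1 is the basic helix-loop-helix factor, also called Scl, that is needed for the onset of blood formation. It read 452 ± 45.3 in nondiabetic and 667 ± 66.8 in diabetic cells, a 1.36-fold higher value with a log2 ratio of 0.44 ± 0.20. The ratio was more than 2 times the software's error, but 21.2% of 6560 probes of like signal had one at least as high. Lyl1, its close relative with an overlapping role in adult stem cells, read 3296 ± 329.6 and 3429 ± 343. Scaled, that is a log2 ratio of -0.06 ± 0.20, within the error of 0. Lyl1 was the only one of the 10 genes whose ratio was below 0, and it remained below 0 under each scaling tried, between -0.07 and -0.04.

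Lmo2 is a LIM-only protein that binds no DNA and bridges Tal1 to GATA factors. Its intensity was 3722 ± 372 on the nondiabetic and 6158 ± 616 on the diabetic array. This made it 1.53-fold higher, with a log2 ratio of 0.61 ± 0.20. A ratio at least as high was found for 3.31% of the 1509 probes of similar signal, which are bright, and for 16.9% of all probes measured on both arrays. Ldb1, the LIM-domain-binding protein that holds the complex together and links distant regulatory regions, read 974 ± 97.4 and 1356 ± 136. It was 1.28-fold higher, with a log2 ratio of 0.36 ± 0.20.

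Fli1, an ETS factor active in stem cells, megakaryocytes and endothelium, had the highest ratio among the 10 genes by their brightest probes. Its probe read 220.3 ± 22.1 in nondiabetic and 549 ± 54.9 in diabetic cells, 2.30-fold higher, with a log2 ratio of 1.20 ± 0.20. A ratio at least as high was found for 5.32% of the 8118 probes of like signal and for 6.64% of all probes measured on both arrays. Starting from the median spot intensity, with normexp background correction and quantile normalization together, it was 0.97, just under 2-fold. Around this signal, 58 probes were printed at least 5 times, and the median spread of their log2 ratios between spots was 0.08.

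Erg, the ETS factor most like Fli1 and needed to sustain adult stem cells, was read by a pair of probes. The brighter read 337 ± 33.7 and 472 ± 47.3, 1.29-fold higher with a log2 ratio of 0.37 ± 0.20. The dimmer read 11.8 ± 2.88 on the nondiabetic array, not well above background, and 34.4 ± 4.30 on the diabetic array, where it was. The dim value lay above that array's lowest well-above-background intensity of 10.2, so the bound equals the measured ratio and is no lower limit. It was 2.68-fold higher, a log2 ratio of 1.42 ± 0.39. Among all 3045 probes well above background on the diabetic array only, 42.7% had a bound of at least 2-fold, so a bound of this kind is common. With normexp and quantile normalization the log2 ratio of this probe was 0.32. By the reported values the probes of Erg lay 1.05 log2 units apart. Of 3846 genes with several probes, 40.1% had ratios or bounds more than 1 log2 unit apart.

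Runx1 binds DNA with its partner Cbfb and drives the emergence of the first blood stem cells from endothelium. One of its probes read 67.4 ± 7.23 and 84.6 ± 8.83, a log2 ratio of 0.21 ± 0.22. The other, designed on a different Runx1 transcript, read 42.2 ± 4.70 and 45.9 ± 5.03, a log2 ratio of 0.0041 ± 0.23. Neither ratio exceeded its error, and the sign of the latter depended on the scaling, which moved it between -0.0079 and 0.032. With normexp and quantile normalization the brighter probe's ratio was 0.086.

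Meis1, a homeodomain factor that works with Hox and Pbx proteins to keep stem cells quiescent, read 1035 ± 103.6 on the nondiabetic and 1361 ± 136 on the diabetic array. It was 1.21-fold higher, with a log2 ratio of 0.28 ± 0.20. Gfi1b is a repressor that restrains stem cell cycling and is needed in red cell and platelet precursors. It read 103.5 ± 10.6 and 119.4 ± 12.2, a log2 ratio of 0.09 ± 0.21, within the error of 0.

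Ordered by the ratio of the brightest probe, Fli1 came before Lmo2, Tal1, Erg, Ldb1, Meis1, Gata2, Runx1, Gfi1b and Lyl1. Fli1 and Lmo2 lay 0.59 log2 units apart, with a combined software error of 0.29. In the other 8 neighbouring pairs the gap was at most 0.17, below the combined error, so their order is not resolved. Tal1, Lmo2 and Fli1 exceeded 2 times their error, while Runx1, Lyl1 and Gfi1b were within 1 error of 0. Of all probes measured on both arrays, 22.4% had a ratio at least as high as Tal1, the lowest of the former, so passing that limit is common. Except for the second Runx1 probe, each member probe kept its sign under the scalings tried.

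**Figure D2:**
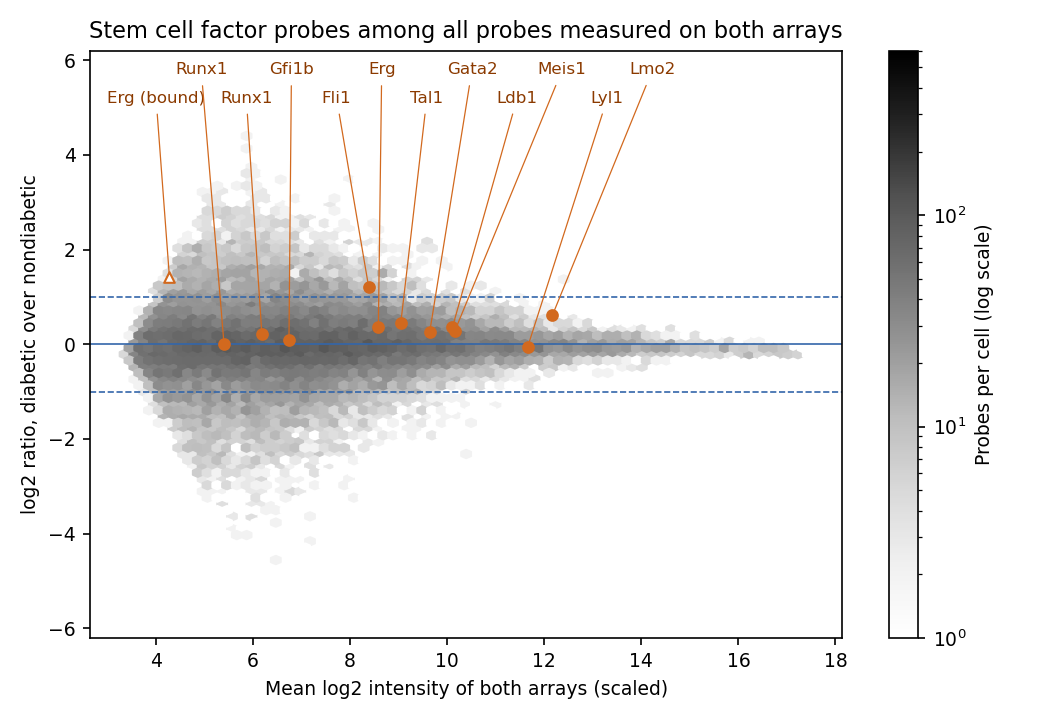
Log2 ratio, diabetic over nondiabetic, against the mean log2 signal for all probes measured on both arrays, with the member probes marked in orange. Shading counts probes on a log scale, dashed lines mark 2-fold, and the open triangle is the bound of the dimmer Erg probe. Fli1 at 1.20 is the only member probe measured on both arrays that lies past 2-fold.

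Genes around these factors were read as 4 lists, which together hold 64 genes on the array, with 8 genes on several lists. Of 57 with a value, 6 were 2-fold higher or more and 5 were lower by as much, with a median of 0.18, beside the 11.0%, the 10.1% and the median of 0.02 over all genes. The counts depended on the processing. They were 3 higher and 9 lower with the median probe, 2 higher and 3 lower with normexp and quantile normalization, and 8 higher and 5 lower with ratios for dim probes too.

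The proteins that bind the members gave 3 genes at least 2-fold higher and 1 lower of 17, with a median of 0.36, or 0.18 with the median probe of each gene. Tcf3 and Tcf12 encode E proteins, the partners with which Tal1 and Lyl1 bind DNA. Tcf12 read 43.6 and 99.7, a log2 ratio of 1.07, but its dimmer probe gave -0.30. Tcf3 read 477 and 292, a log2 ratio of -0.82, with -1.04 on its other probe. Among the partners of Ldb1, the single-stranded DNA-binding proteins that protect it from degradation, Ssbp3 was at 0.87, Ssbp4 at 0.49 and Ssbp2 at -0.47. The dimmer probes of Ssbp2 gave -0.55 and 0.65, so they differed in direction. Cbfb, the partner of Runx1, read 1418 and 1972, a log2 ratio of 0.36.

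Pbx proteins join Meis1 and Hox proteins on DNA, and they differed in direction. Pbx3 read 72.0 and 311, a 3.99-fold higher, while its other probe gave a log2 ratio of 0.29. Pbx2 read 296 and 114, a log2 ratio of -1.49. Hoxa9, a leading Hox gene of these cells, was at 0.64. Of the corepressors that Gfi1b recruits, the histone demethylase Kdm1a was at 0.44. Its cofactor Rcor1 read 112 and 358, a log2 ratio of 1.56, with -0.11 on its other probe. Gata1, which takes the place of Gata2 in red cell and platelet precursors, read 150.3 and 108, a log2 ratio of -0.59.

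Relatives of the members from the same families gave 1 gene at least 2-fold higher and 2 lower of 14 with a value, with a median of -0.21. The median was -0.66 with the median probe of each gene and -0.12 with ratios for dim probes too. Tal2, Lmo3, Ldb2 and Meis2 were not well above background on either array. Ets1, an ETS factor of lymphoid cells and endothelium, read 203.5 and 49.0, a log2 ratio of -2.17. Its other probe was well above background on the diabetic array only, at least 3.68-fold higher, so the probes of Ets1 do not give it a direction. Gata3, known from T cells and stem cells, read 99.5 and 43.8, a log2 ratio of -1.30. Lmo1 was not well above background on the nondiabetic array, at 9.58, and read 38.8 on the diabetic array, at least 3.50-fold higher. Gfi1, the relative of Gfi1b that restrains stem cell division, read 746 and 464, a log2 ratio of -0.80. Of the 14, 6 lay above 0. Among these were Elk3 at 0.97, with 0.30 and -0.46 on its other probes, and the Runx1 relatives Runx2 and Runx3. Runx2 was at 0.69 and Runx3 at 0.40, with -1.28 and -0.013 on their other measured probes.

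Other regulators of blood stem cells gave 1 gene at least 2-fold higher and 2 lower of 17, with a median of 0.00064 whose sign changed with the scaling and background correction, between -0.040 and 0.022. Mecom, whose Evi1 product maintains stem cells, read 182 and 86.1, a log2 ratio of -1.20, with -0.16 on its other probe. Cebpa, the factor that starts the granulocyte program, read 655 and 301, a log2 ratio of -1.24. Zfp521, a zinc finger factor of early progenitors, read 12.8 and 29.0, a log2 ratio of 1.07, and its other probe was at least 2.77-fold higher. Myb was at 0.72 and Spi1, which encodes PU.1, at 0.59.

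Genes known to be controlled by these factors gave 1 gene at least 2-fold higher and 0 lower of 17 with a value, with a median of 0.22. That median depended on the probe and filter, at -0.028 with the median probe, 0.080 with the mean over probes and 0.063 with ratios for dim probes too. Gp9, a platelet receptor subunit and known target of Fli1, read 14.4 and 44.9, a log2 ratio of 1.52. The nondiabetic value lay near that array's lowest well-above-background intensity of 10.2. Other megakaryocyte genes bound by Fli1 or Gata factors had log2 ratios of 0.75 for Pf4, 0.35 for Gp1ba and 0.31 for Itga2b. Kit, a target of the Tal1 complex, read 4635 and 4735, a log2 ratio of -0.09. The endothelial and stem cell gene Eng was at -0.87 and Tek at -0.60. Cdh5 and Epb42 were among the genes not well above background on either array.

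**Figure D3:**
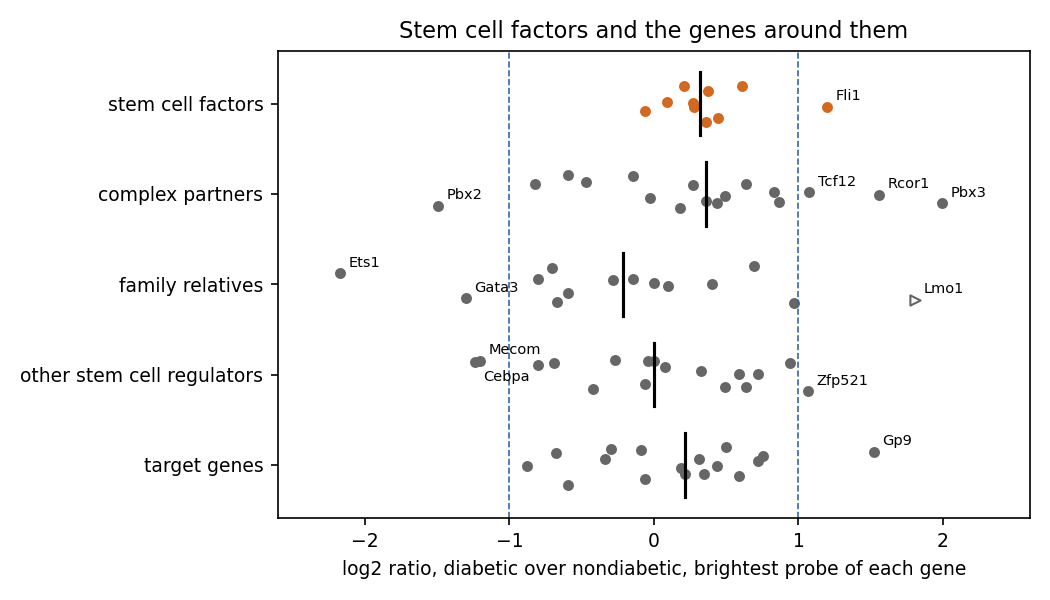
Log2 ratio, diabetic over nondiabetic, of each gene by its brightest probe, for the members and the 4 lists around them. Dashed lines mark 2-fold, thick lines the medians and the open triangle a bound. The medians of the lists lie between -0.21 and 0.36.

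Marker genes were read beside these values, as sums of intensity with the diabetic array scaled to the nondiabetic. The brightest gene of a list is that with the highest mean log2 signal over both arrays, by 1 probe per gene, and need not be the brightest on each array. Of 8 LSK markers, 7 passed background in nondiabetic and 8 in diabetic cells, with sums of 13963 and 14734 and Kit the brightest. Slamf1 was the exception, at least 2.59-fold higher in diabetic cells. Kit and Ly6a, the genes of c-kit and Sca-1, were thus detected on both arrays. The median log2 ratio of the LSK markers was 0.20, with 6 of 8 genes above 0.

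Several members are also active in other cells, so lists of markers of those cells are given by their counts and sums, with the genes past 2-fold named. Megakaryocyte markers were well above background for 7 of 8 genes on each array, with sums of 2216 and 2806, Itgb3 the brightest and Ppbp not well above background. Gp9, given above, was past 2-fold, and the list's median log2 ratio was 0.35, with 6 of 7 genes above 0. The Itgb3 probe used was at 0.49, but its other probe read 814 and 754, a log2 ratio of -0.23. Endothelial markers, for cells that also express Fli1, Erg, Tal1 and Lyl1, were so for 7 of 8, with sums of 1584 and 2134, Kdr the brightest and the defining Cdh5 not well above background. The other Kdr probe, printed 10 times for the same transcript, read 3.00 and 2.61 and passed background on neither array. Within the endothelial list Pecam1, which stem cells also carry, was at 2.41 and Emcn at -1.30. Without Pecam1 the sums were 1421 and 1271, in the other direction. Over the whole list, Pecam1 included, the median log2 ratio was -0.11, with 2 of 7 genes above 0.

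For erythroid markers the counts were 7 of 9 on each array and the sums 2753 and 5473, and without the brightest, Hba-a1, they were 769 and 894. Both globin genes of the list were past 2-fold, Hba-a1 at 1.21 and Hbb-b1, which read 102 and 225, at 1.02. The erythroid factors Gata1 and Klf1 were at -0.59 and -0.30, and the list's median was 0.14, with 4 of 7 genes above 0. Tfrc was at 0.14, with 2.05 and 0.083 on its other probes. Epb42, a gene of the red cell membrane skeleton, was among those not well above background. Mast cell and basophil markers, for cells that use Gata2, were detected for 5 of 8 genes on each array, with sums of 741 and 454 and Tpsb2 the brightest. The genes detected were not the same on both arrays. Fcer1a read 31.5 and 5.67 and passed background in nondiabetic cells only, at least 3.39-fold lower in diabetic cells, and Gzmb read 9.33 and 19.6 and passed it in diabetic cells only. Mcpt8 and Ms4a2 passed it on neither array. Cpa3 was at -2.54, while Hdc was at 0.45. The median of the mast cell and basophil list, bounds included, was -0.60, with 2 of 6 genes above 0.

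Granulocyte and monocyte markers were detected for 7 of 8 genes on each array, with sums of 43276 and 39012 and Itgam the brightest, and Cebpe was not well above background. Itgam encodes CD11b, a lineage marker of myeloid cells, and its brightest probe read 34686 and 35189 before scaling. Its other probes read 284 and 142, a log2 ratio of -1.12, and 111 and 49.2, a log2 ratio of -1.30. Without Itgam the sums of the list were 8589.9 and 6571. S100a8, a gene of maturing neutrophils, was at -1.48, while S100a9 was at 0.10 and Elane at 0.50. Over the granulocyte and monocyte list the median log2 ratio was -0.34, with 2 of 7 genes above 0. Ly6g had no probe assigned. B cell markers were detected for 5 of 7, with sums of 752 and 1025, Vpreb1 the brightest, and Ebf1 and Ms4a1 not well above background. Cd79a, a part of the B cell receptor, was at 1.51, while Cd79b was at -0.39. The median of the B cell list was 0.48, with 4 of 5 genes above 0. For T and NK cell markers the count was 6 of 8 and the sums were 4971 and 3984, with Nkg7 the brightest and Cd8a not well above background. Cd3g passed background in nondiabetic cells only, at least 2.74-fold lower in diabetic cells, and Klrb1c in diabetic cells only. The other Nkg7 probe was at 0.87, against -0.47 for the probe used. Il7r, a cytokine receptor gene of early lymphoid cells, was at 1.06, while Cd3e was at -0.38. The median of the T and NK list, bounds included, was -0.06, with 2 of 7 genes above 0. Stromal markers were detected for 3 of 7, with sums of 374 and 280, Pdgfrb the brightest, and Col1a1, Pdgfra and Dcn not well above background. Of this list, Cxcl12 passed background in nondiabetic and Lepr in diabetic cells only, and the collagen gene Col1a2 was at -1.07. The median of the stromal list, bounds included, was -0.45, with 0 of 3 genes above 0. The part of these cell types in the members' ratios was not tested.

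Because the members are known to control each other, their promoters are shown with the letters their families bind. RefSeq promoter windows of build GRCm38.p6, 250 bases before to 50 after a transcript start, were given for 8 of the 10 genes, as 15 windows, and not for Lmo2 and Fli1. Both strands were searched. The ETS letters CAGGAA or CCGGAA were in 5 of the 15 windows and in 41.4% of all 32851 windows. The GATA letters AGATAA or TGATAA were in 4 of 15, against 18.6% of all windows. E-box letters, CAGATG or CAGCTG, were in 2 of 15 and 30.6% of all. RUNX letters, TGTGGT or TGCGGT, were in 2 of 15 and 22.4%, and the MEIS letters TGACAG were in 1 of 15 and 19.2%. A match describes the letters only.

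Erg has several windows on the minus strand of chr16. Only the window with the stretch chr16:95459367-95459466 holds GATA or ETS letters, and it holds both, shown in capitals.
Erg: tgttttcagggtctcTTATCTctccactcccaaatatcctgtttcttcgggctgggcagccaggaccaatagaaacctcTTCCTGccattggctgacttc

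The Lyl1 window holds ETS letters 3 times, shown in capitals on the plus strand at chr8:84701261-84701410.
Lyl1: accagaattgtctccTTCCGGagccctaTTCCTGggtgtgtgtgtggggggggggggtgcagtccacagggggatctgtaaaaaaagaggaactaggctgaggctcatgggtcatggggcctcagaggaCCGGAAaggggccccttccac

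Runx1 has windows at its separate transcript starts, and those that hold ETS letters, in capitals, are shown from the minus strand at chr16:92826179-92826214 and chr16:92697415-92697450.
Runx1 upstream: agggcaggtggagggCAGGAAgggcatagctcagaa
Runx1 downstream: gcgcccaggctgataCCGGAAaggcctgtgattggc

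GATA letters, in capitals, stand in a window of Tal1 on the plus strand at chr4:115056206-115056241 and of Gfi1b on the minus strand at chr2:28622082-28622117.
Tal1: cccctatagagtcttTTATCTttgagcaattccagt
Gfi1b: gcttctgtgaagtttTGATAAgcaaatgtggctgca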

How the data were processed

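RNA of LSK cells was measured on 2 arrays, 1 per condition. The authors deposited a scanner file per array, written by Agilent Feature Extraction 11.5.1.1, whose intensity values were corrected for background within the array and not normalized between arrays. A further deposited table holds processed intensity values, equal to each array's intensity times a constant (log2 factors 3.48 and 3.35). The array grid refers to mm9, and no coordinates were taken from it. Intensities were taken to log2 and scaled by subtracting the array's 75th percentile of non-control spots. A spot that the software had marked on any array, for uneven pixels or as an outlier of its population, was removed from both, and spots of a probe were averaged. A probe well above background on 1 array gave a bound, taken against its own dim value or that array's lowest well-above-background intensity (10.2 nondiabetic, 10.1 diabetic), whichever was higher. Probes were named by transcript identifier from a RefSeq table of GRCm38.p6. A gene was represented by its brightest probe, by mean log2 signal. The software's errors of both spots were propagated to the log2 ratio. With 1 array per condition no test was possible, and the number of arrays limits the precision.

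The members and lists were chosen with earlier results of these data known. From the lists, genes past 2-fold and genes known to pair with, resemble or be controlled by a member were named, and some genes of the lists are not reported here. Alternatives were normexp (offset 50, on the median spot intensity, since the files hold no mean) with quantile normalization, quantile normalization, centring on the median ratio, loess (span 0.3), ratios for dim probes too, ratios without bounds, marked spots kept, the authors' table, and the mean or the median probe of a gene. The steps were tested on simulated data. Python 3.11.15 with numpy 2.4.6 and pandas 2.3.3, and R 4.3.3 with limma 3.58.1 were used.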

Additional observations from a re-analysis of the deposited data

How the results depend on the processing

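The median ratio of the 10 genes lay between 0.29 and 0.34 under 10 alternatives, and 9 genes were above 0 under each. The number of member probes past 2-fold was 2 with the bound for Erg, 0 with normexp and quantile normalization, and 1 when bounds were left out, which removes the Erg probe by construction. Genes of the lists at least 2-fold higher went from 6 to 3 with the median probe and to 2 with normexp and quantile normalization, and those at least 2-fold lower from 5 to 9 and to 3. With ratios for dim probes too, 8 were higher. The cause was not tested, and the normexp alternative also changed the scaling and the input intensity. Of 183 alternative values, 173 lay within the software's error of the reported ratio or median, or within a factor of 1.5 of the reported count, and 10 did not. Some of the 173 could not have moved. As no member spot was marked, keeping marked spots left the member ratios unchanged by construction. The filters on dim probes likewise could not change the 11 member probes well above background on both arrays. In 6 of the 183 the sign differed, for the dimmer Runx1 probe and the medians of the other regulators and of the target genes, each under 2-fold. With the median probe the median of the binding partners was 0.18, that of the family relatives -0.66 and that of the target genes -0.028. No paired analysis was possible because there is 1 array per condition, and for the same reason no replicate could be left out. Signal over background limits the dimmer Erg probe.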
